A study of Rattus norvegicus with 167 samples.

Results

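Arg1, Nos2 and Mrc1 are the 3 genes most often used to describe how macrophages are polarised, and their levels are described here across an experiment on spinal cord transection in the rat. They were taken by name, 3 of 14217 genes that had a probe set annotated to 1 gene symbol alone, and each had exactly 1 such probe set. Of these 14217 genes, 12040 lay above the 40th percentile of an array in at least 3 arrays and were tested. All 3 members passed that filter: Arg1 lay above it in 158 of 167 arrays, Mrc1 in 165 and Nos2 in 167.

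The samples were spinal cord of adult female Wistar rats whose cord had been cut through completely at mid-thoracic level, with a 5 mm segment taken out. Lesion control animals (LC) received no tube, ET animals an empty chitosan tube, and NT3 animals a chitosan tube carrying neurotrophin-3. On days 1, 3, 10, 20, 30, 60 and 90, 5 mm pieces were collected from rostral cord, caudal cord and the lesion site. The last was sampled from day 3 on, and under ET on day 3 alone. With 3 uninjured cords this made 56 groups, 55 of 3 arrays and 1, rostral ET on day 10, of 2. The injured groups all carry the transection and the removal of tissue, so the lesion site holds what later filled the gap or the tube and not the cord that was removed. The uninjured cords are the reference for all 3 positions.

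Arginase-1, the product of Arg1, splits arginine into urea and ornithine, the precursor of polyamines and proline. Inducible nitric oxide synthase, the product of Nos2, turns the same arginine into nitric oxide and citrulline. Macrophages activated by bacterial products and interferon-gamma are known for Nos2, those exposed to interleukin-4 or interleukin-13 for Arg1 and for Mrc1, the mannose receptor CD206, which takes up glycoproteins. In the healthy nervous system Mrc1 marks the macrophages of the meninges and of the spaces around vessels and is low in microglia, while after injury monocytes enter from the blood.

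Values are the authors' deposited log2 values, and differences are on the same scale. Array medians lay between 7.10 and 7.25, and the 40th percentile between 6.49 and 6.60. Of 9 cord markers measured, 8 lay above the 40th percentile in the uninjured cords, and Syt1 did not. Groups were compared with limma's moderated test, adjusted by Benjamini-Hochberg over the 12040 genes with 0.05 as threshold. The number of arrays limits the precision, and nothing in the labels ties replicates to different rats. The p-values therefore measure only the spread between these samples, which may be technical. In whole tissue, fewer cells of a type and less RNA per cell cannot be told apart. The difference between the 3′ and 5′ beta-actin probe sets, a sign of RNA quality, was 1.72 ± 0.51 (SD, n = 3) in uninjured cord, 1.17 ± 0.22 (n = 18) in LC and 1.15 ± 0.21 (n = 18) in NT3 at the lesion site. It was 1.07 ± 0.22 (n = 21) in rostral and 1.00 ± 0.16 (n = 21) in caudal LC, so every comparison of LC with uninjured cord also sets arrays against each other that differ in it. RT1-CE10, a class I histocompatibility gene, was above 9 in none of the uninjured cords. It was above 9 in all LC arrays of day 1 beside the lesion and of days 30 and 90 in every segment. On day 3 it was above 9 in 1 of 3 rostral, 2 of 3 caudal and 2 of 3 lesion-site LC arrays, and on day 20 in 2 of 3 LC arrays at the lesion site. Each comparison of LC with uninjured cord given here therefore holds such LC arrays, and the part of RT1-CE10 in them was not tested. At the lesion site none of the NT3 arrays was above 9 except all 3 of day 30, and none of the ET arrays was.

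Arg1 rose within a day of transection next to the lesion and fell back within weeks, while at the lesion site it stayed high through day 30. In uninjured cord the 3 arrays read 7.72, 7.56 and 7.87. Rostral LC arrays read 10.46, 11.50 and 11.92 on day 1, none of them near the uninjured range. Their mean lay 3.58 higher than uninjured cord (SE 0.26, adjusted p = 5.05e-16), which is 11.9-fold, in a comparison that called 62.6% of all genes. On day 3 the rostral arrays read 8.66, 8.91 and 8.86, still above every uninjured array, with a difference of 1.09 (SE 0.26, adjusted p = 0.000349) where 64.3% of genes were called. Caudally, LC arrays read 10.54, 10.27 and 11.09 on day 1 and 9.14, 9.49 and 9.41 on day 3. These were differences of 2.92 (SE 0.25, adjusted p = 1.10e-13; 56.8% of genes called) and 1.63 (SE 0.25, adjusted p = 2.66e-07; 63.2%). Both sides of the lesion thus went from their highest level on day 1 to a lower one on day 3.

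From day 10 on, Arg1 beside the lesion lay around or below the uninjured level. Over days 10, 20 and 30 the 9 rostral arrays ran from 7.09 to 8.72, 1 above and 5 below the uninjured range, and the mean difference was -0.14 (95% interval -0.58 to 0.29, adjusted p = 0.586) where 60.5% of genes were called. The 9 caudal arrays ran from 7.16 to 8.91, with a difference of 0.12 (95% interval -0.29 to 0.54, adjusted p = 0.628; 61.7% called). On days 60 and 90 all 6 rostral arrays (6.90 to 7.18) and all 6 caudal arrays (7.07 to 7.54) lay under the lowest uninjured array. The rostral difference of -0.68 (SE 0.23) passed the test at adjusted p = 0.0111 where 53.6% of genes were called, and the caudal one of -0.47 (SE 0.22) did not at adjusted p = 0.0643 (56.6% called). The rostral call ended without uninjured replicate 3 (-0.60, adjusted p = 0.0582) and with the beta-actin difference as a covariate (-0.60, adjusted p = 0.0703).

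At the lesion site Arg1 had 2 high periods in LC. The arrays read 11.01, 11.32 and 11.57 on day 3, then 9.67, 9.60 and 9.62 on day 10. On day 20 they read 12.80, 11.71 and 11.49, and on day 30 11.47, 11.02 and 11.33. Every array of days 20 and 30 lay above every array of day 10, so the level dipped on day 10 and was high again afterwards. RT1-CE10 was above 9 in 2 of 3 of these LC arrays on days 3 and 20, in all 3 on days 30 and 90 and in none on days 10 and 60. Its part in this course was not tested. By day 60 the arrays read 8.53, 8.85 and 9.67 and by day 90 7.48, 8.71 and 7.10, when they overlapped the uninjured range. Against uninjured cord the difference was 3.58 on day 3 (SE 0.30, adjusted p = 2.78e-12; 74.4% of genes called) and 3.25 over days 10 to 30 (SE 0.25, adjusted p = 1.24e-13; 79.0% called). Over days 60 and 90 it was 0.67 (SE 0.26, adjusted p = 0.0209; 75.4% called), a call that ended without LC day 60 replicate 3 (0.51, adjusted p = 0.0714), LC day 90 replicate 2 (0.44, adjusted p = 0.0860) or uninjured replicate 2 (0.59, adjusted p = 0.0818). The level of Arg1 in LC changed with the day in all segments, with F of 66.8 rostrally (adjusted p = 5.47e-19), 58.3 at the lesion site (adjusted p = 3.55e-13) and 50.8 caudally (adjusted p = 3.97e-17). These tests by day called 72.5%, 70.6% and 73.3% of all genes. LC arrays of different days also differed in RT1-CE10 in every segment. Its part in these and the later tests of LC by day was not tested.

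**Figure D1:**
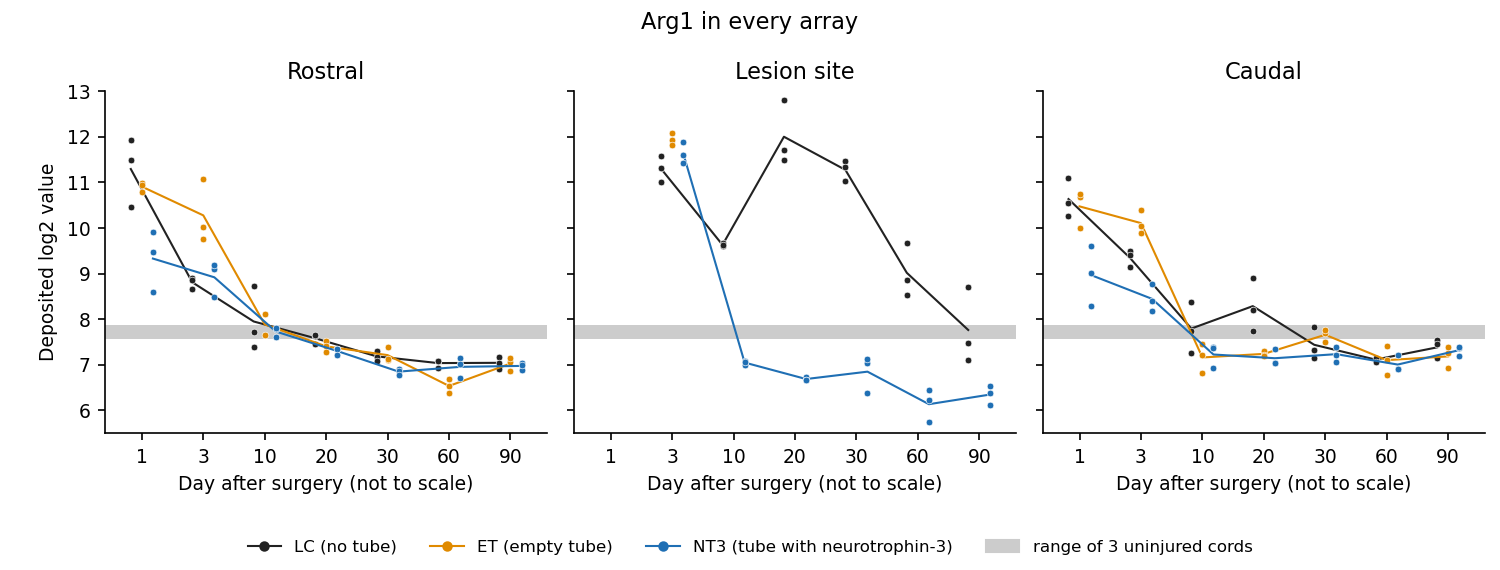
Deposited log2 values of Arg1 (vertical axis) by day after surgery (horizontal axis) in rostral cord, lesion site and caudal cord. Points are single arrays, lines join group means, and the grey band is the range of the 3 uninjured cords. Beside the lesion the points are high on days 1 and 3 and then mostly near or under the band. At the lesion site LC stays above it to day 60, while NT3 drops below it from day 10.

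Mrc1 rose in every segment and stayed up to day 90. Uninjured cords read 6.33, 6.45 and 6.71, at a mean percentile of 39.4, just under the percentile used as filter. The differences from uninjured cord are therefore given without a fold. At the lesion site LC arrays read 11.63, 11.60 and 11.42 on day 3 and 11.13, 11.74 and 11.95 on day 10. They read 11.86, 11.38 and 11.08 on day 20 and 11.56, 11.43 and 11.33 on day 30. On days 60 and 90 the 6 arrays ran from 10.13 to 10.94, lower than every array of days 3 to 30 and still far above the uninjured cords. The differences from uninjured cord were 5.06 on day 3 (SE 0.17, adjusted p = 3.10e-22), 5.00 over days 10 to 30 (SE 0.14, adjusted p = 9.20e-25) and 4.11 over days 60 and 90 (SE 0.15, adjusted p = 1.14e-21).

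Beside the lesion Mrc1 was higher on day 3 than on day 1 and stayed above uninjured cord to the end. Rostral LC arrays read 8.86, 8.86 and 9.0 on day 1 and 10.33, 10.05 and 10.54 on day 3. Caudal LC arrays read 8.50, 7.86 and 8.71 on day 1 and 10.17, 10.23 and 10.20 on day 3. On both sides every day 3 array lay above every day 1 array, the reverse of Arg1. The rostral differences from uninjured cord were 2.41, 3.81, 3.034 and 2.71 on day 1, on day 3, over days 10 to 30 and over days 60 and 90, with SE of 0.26 to 0.32. The largest of their adjusted p-values was 6.52e-09. The caudal differences over the same periods were 1.86, 3.71, 3.298 and 2.19, with SE of 0.25 to 0.31, and the largest adjusted p was 1.28e-06. All of the 21 rostral and 21 caudal LC arrays lay above the highest uninjured array. Mrc1 in LC changed with the day at F of 4.51 rostrally (adjusted p = 0.00230), 15.9 at the lesion site (adjusted p = 6.02e-07) and 14.5 caudally (adjusted p = 2.04e-08). The rostral call ended in a fit of the compared groups alone (F of 2.49, adjusted p = 0.0836).

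A few LC arrays beside the lesion stood apart in Mrc1. On day 10 the rostral arrays read 8.15, 10.70 and 10.35, and Arg1 in the same arrays read 7.40, 8.72 and 7.73. The array lowest in Mrc1 was also lowest in Arg1, and its fibroblast and meninges list lay 0.99 above uninjured cord against 2.70 or more in the other arrays. Caudally on day 10 Mrc1 read 9.59, 9.71 and 11.50 and Arg1 7.25, 7.75 and 8.38, and on day 20 Mrc1 read 9.67, 11 and 9.63 and Arg1 7.75, 8.91 and 8.20. In both caudal groups the array highest in Mrc1 was highest in Arg1 and in the macrophage and microglia list, at 2.93 and 2.90 above uninjured cord. The part of tissue composition in this spread was not tested.

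**Figure D2:**
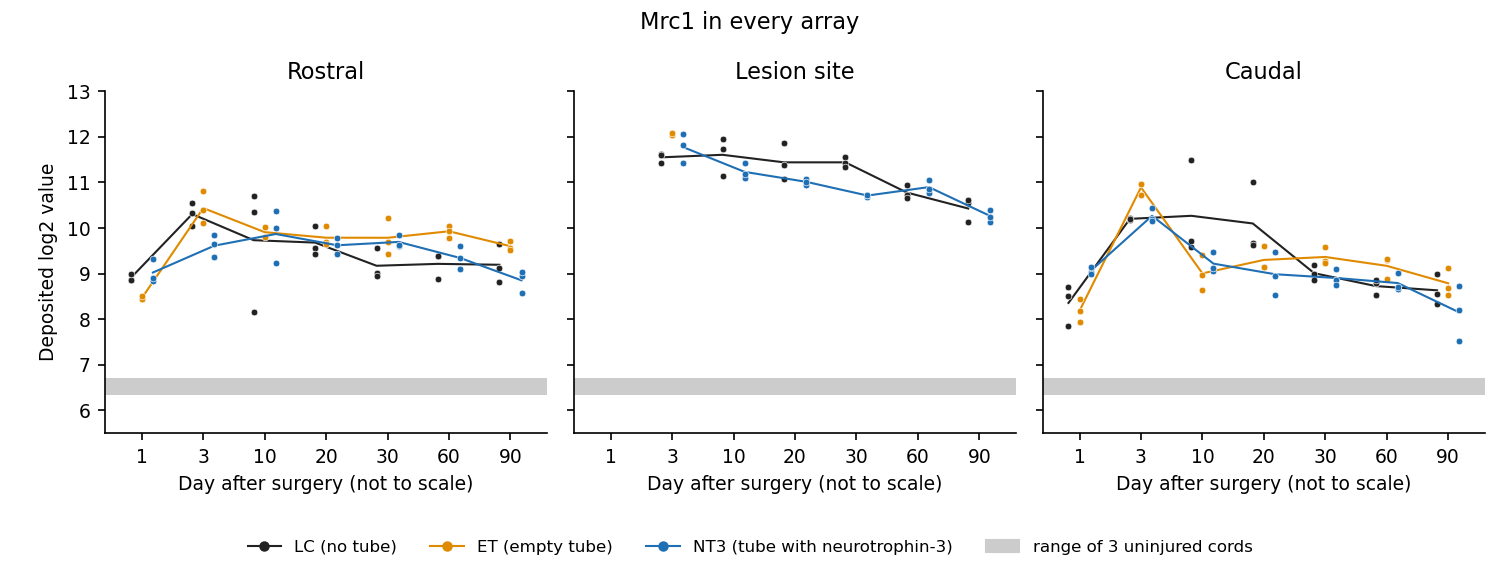
Deposited log2 values of Mrc1 (vertical axis) by day after surgery (horizontal axis) in rostral cord, lesion site and caudal cord. Points are single arrays, lines join group means, and the grey band is the range of the 3 uninjured cords. Every injured array lies above the band, with the highest values, up to 12.08, at the lesion site.

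The probe set of Nos2 hardly moved. It read 8.57, 8.46 and 8.56 in uninjured cord and ran from 8.23 to 9.08 over all 167 arrays. Its 56 group means spanned 0.51, and only 3.2% of the 12040 genes had a smaller span. The group means of Arg1 spanned 5.87 and those of Mrc1 5.57, more than 99.4% and 99.1% of genes, where the median gene spanned 1.28. Of 11 comparisons of LC with uninjured cord, Nos2 passed the test in 1, at the lesion site over days 10 to 30. The 9 arrays there ran from 8.36 to 8.87, 7 above and 1 below the uninjured range, with a difference of 0.19 (SE 0.07, adjusted p = 0.0227). That call ended without uninjured replicate 2 (0.15, adjusted p = 0.111), in a fit of the compared groups alone (adjusted p = 0.0793) and with the beta-actin covariate (0.16, adjusted p = 0.109). The other 10 differences lay between -0.05 and 0.14. The largest of them, caudally over days 60 and 90, did not pass (adjusted p = 0.116 by limma). All 6 arrays there (8.59 to 8.80) lay above the highest uninjured array. Nos2 in LC changed with the day at the lesion site (F of 4.31, adjusted p = 0.00788) and caudally (F of 3.78, adjusted p = 0.00662) but did not pass rostrally (F of 0.86, adjusted p = 0.547), and both calls ended in a fit of the compared groups alone (adjusted p = 0.0797 and 0.0666).

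Another probe set of the array is annotated both to Nos2 and to Nos2-ps1, a pseudogene, and was left out by the rule. It was added after the data had been seen. It read 4.12, 4.11 and 3.96 in uninjured cord, at about percentile 6.0 of the array, and lay above the 40th percentile in only 3 of 167 arrays. At the lesion site LC arrays read 4.99, 5.32 and 6.41 on day 3, 4.80, 5.12 and 4.62 on day 10, and 7.32, 6.23 and 6.31 on day 20. They read 5.24, 4.87 and 4.35 on day 30 and ran from 4.16 to 4.73 afterwards. In its place among the tested genes, its differences from uninjured cord were 1.51 on day 3 (SE 0.34, adjusted p = 0.000171) and 1.37 over days 10 to 30 (SE 0.28, adjusted p = 4.10e-05). Rostral LC arrays on day 1 read 4.94, 5.83 and 6.53, a difference of 1.71 (SE 0.31, adjusted p = 5.04e-06), and caudal ones 4.41, 4.37 and 4.51, a difference of 0.37 (SE 0.11, adjusted p = 0.00298). The other 7 differences from uninjured cord lay between -0.06 and 0.33 and did not pass. In LC it changed with the day, with F of 8.46 rostrally (adjusted p = 1.22e-05), 13.1 at the lesion site (adjusted p = 3.59e-06) and 4.88 caudally (adjusted p = 0.00131). Over the 56 group means it correlated with Arg1 at Pearson r of 0.81 (Spearman rho 0.70) and with the probe set of Nos2 at 0.16 (rho 0.14), a description over groups that share arrays and controls. Which of these probe sets follows the Nos2 transcript was not tested, so values of both are given.

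**Figure D3:**
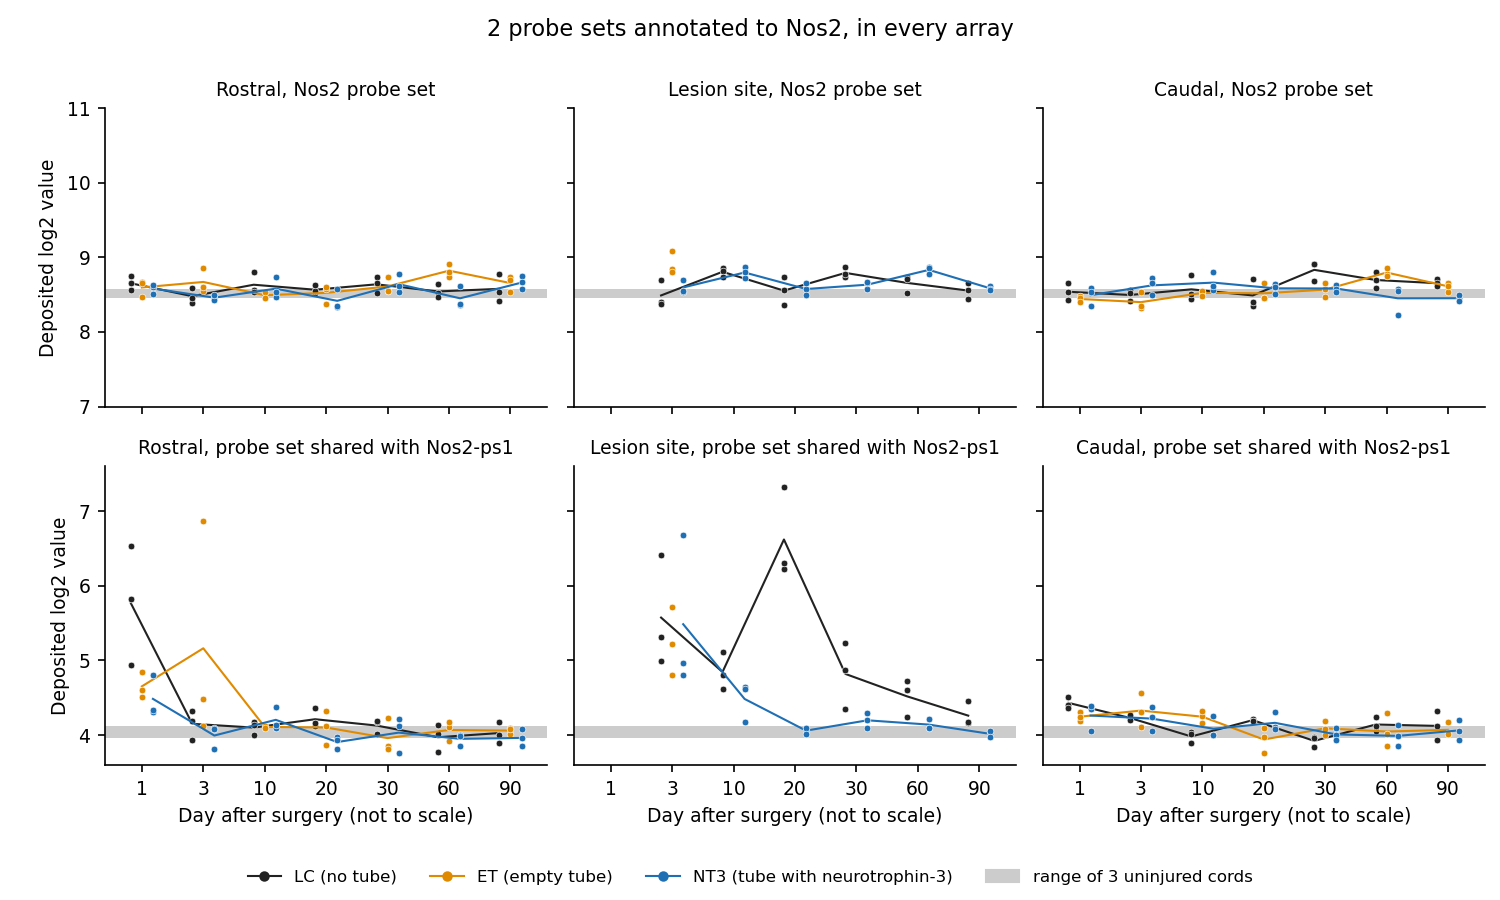
Deposited log2 values of the probe set of Nos2 (upper row) and of the probe set shared with Nos2-ps1 (lower row) by day after surgery, in the same layout of segments, arms and arrays; both rows have the same number of log2 units. The upper row stays between 8.23 and 9.08. In the lower row LC rises above the grey uninjured range at the lesion site up to 7.32 on day 20, and rostrally up to 6.53 on day 1.

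Arg1 and Mrc1 were higher at the lesion site than in the neighbouring cord. The tests between segments treat their arrays as independent, and the labels do not say whether the segments came from the same rats. On day 20 RT1-CE10 was above 9 in 2 of 3 LC arrays at the lesion site and in none beside it. On day 3 it was above 9 in 2 of 3 there, 1 of 3 rostrally and 2 of 3 caudally. Its part in these comparisons was not tested. LC at the lesion site minus the mean of rostral and caudal LC was 2.22 for Arg1 on day 3 (SE 0.24, adjusted p = 4.38e-14), 3.26 over days 10 to 30 (SE 0.14, adjusted p = 8.84e-44) and 1.25 over days 60 and 90 (SE 0.17, adjusted p = 1.59e-10). For Mrc1 it was 1.30 (SE 0.26, adjusted p = 5.72e-06), 1.84 (SE 0.15, adjusted p = 2.57e-22) and 1.66 (SE 0.18, adjusted p = 7.89e-15). These comparisons called 62.2%, 81.6% and 77.0% of all genes, so being called there was common. For Nos2 the differences were 0.00, 0.10 and -0.01, and the second passed narrowly (SE 0.05, adjusted p = 0.0478), with the call ending under 20 of 37 alternatives, 16 of them with 1 array left out. The shared probe set was higher at the lesion site by 1.38 on day 3 (adjusted p = 2.04e-07) and by 1.34 over days 10 to 30 (adjusted p = 2.18e-16), and its difference of 0.32 over days 60 and 90 did not pass (adjusted p = 0.0691). Rostral minus caudal LC over 7 days was -0.16 for Arg1 (95% interval -0.37 to 0.05, adjusted p = 0.885), 0.13 for Mrc1 (-0.09 to 0.35, adjusted p = 0.918) and -0.03 for Nos2 (-0.10 to 0.04, adjusted p = 0.951), where 0.415% of genes were called. The shared probe set gave 0.19 there (adjusted p = 0.817).

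The design sets the tube with neurotrophin-3 against the lesion control, and among the members Arg1 at the lesion site differed most. On day 3 NT3 arrays read 11.43, 11.59 and 11.89 and overlapped LC. From day 10 on they were low: 7.09, 6.99 and 7.07 on day 10, 6.74, 6.66 and 6.66 on day 20, and 7.04, 6.38 and 7.13 on day 30. On day 60 they read 6.45, 6.23 and 5.74 and on day 90 6.12, 6.54 and 6.39. On these 5 days no NT3 array reached the lowest LC array, and every NT3 array lay under the lowest uninjured cord. The values of days 20, 60 and 90 and the 6.38 of day 30 lie near or under the 40th percentile of the arrays. The differences by day are therefore given without a fold. Averaged over 6 days NT3 minus LC was -2.71 (SE 0.12, adjusted p = 6.33e-17), in a comparison that called 41.9% of genes.

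By day, NT3 minus LC for Arg1 was 0.34 on day 3 (SE 0.30, adjusted p = 0.467; 17.8% of genes called) and -2.58 on day 10 (adjusted p = 8.15e-07; 5.22%). It was -5.31 on day 20 (adjusted p = 2.65e-14, 33.5% called) and -4.43 on day 30 (adjusted p = 7.51e-12, 18.1% called). It was -2.88 on day 60 (adjusted p = 1.08e-07; 25.7%) and -1.41 on day 90 (adjusted p = 0.00091; 28.8%), with the same SE on each day. The difference itself changed with the day (F of 45.6, adjusted p = 3.02e-10; 50.6% of genes called). The calls from day 10 to day 90 held under every alternative run at the lesion site, and leaving out the arrays one at a time kept the mean between -2.77 and -2.63. LC and NT3 arrays differed in RT1-CE10 on days 3, 20 and 90, while on days 10 and 60 it was under 9 in all arrays of both arms.

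**Figure D4:**
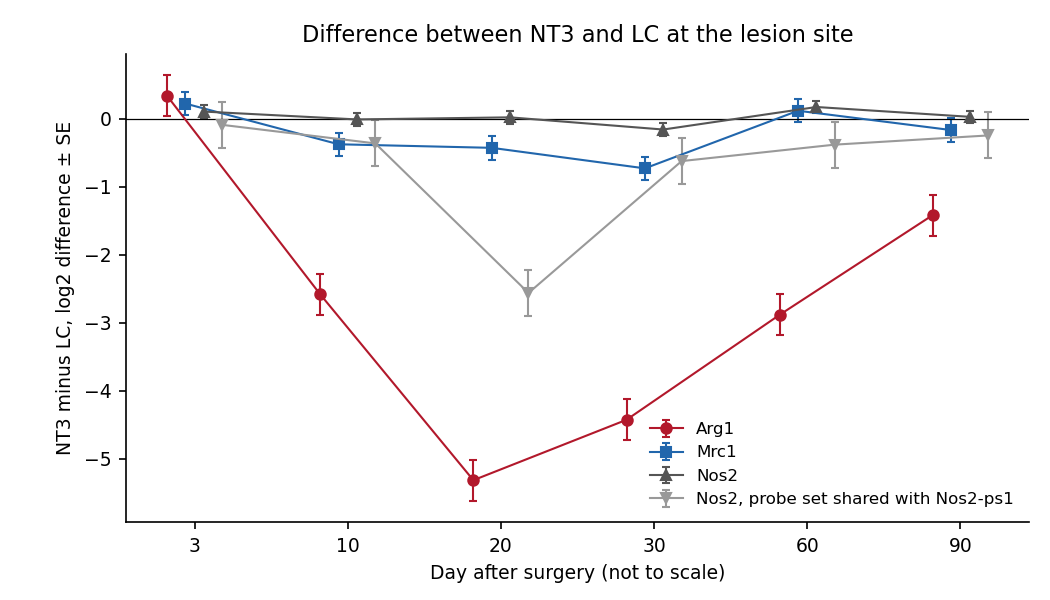
NT3 minus LC at the lesion site (vertical axis, log2 difference with bars of 1 SE) by day after surgery (horizontal axis) for Arg1, Mrc1, Nos2 and the probe set shared with Nos2-ps1. Arg1 falls to -5.31 on day 20 and stays below 0 to day 90, the shared probe set dips to -2.56 on day 20, and Mrc1 and Nos2 lie between -0.73 and 0.22.

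Mrc1 differed far less between NT3 and LC at the lesion site. NT3 arrays read 11.43, 12.06 and 11.83 on day 3, 11.42, 11.09 and 11.18 on day 10, and 10.95, 11.08 and 11.01 on day 20, when the lowest LC array also read 11.08. They read 10.69, 10.72 and 10.73 on day 30, under every LC array of that day, and then 10.77, 10.86 and 11.06 on day 60 and 10.14, 10.40 and 10.24 on day 90, overlapping LC on both days. The mean over days was -0.23 (SE 0.07, adjusted p = 0.0101), a call that ended in one fit of all arrays (adjusted p = 0.119) and with the skeletal muscle list as a covariate (-0.24, adjusted p = 0.116). Of the 6 days, day 30 passed the test, at -0.73 (SE 0.17, adjusted p = 0.00282), and ended in one fit of all arrays (adjusted p = 0.0586). Day 20, at -0.43 (adjusted p = 0.0545), passed without LC day 20 replicate 5 (-0.61, adjusted p = 0.0114), and day 10, at -0.37 (adjusted p = 0.255), passed without LC day 10 replicate 1 (-0.61, adjusted p = 0.0229). Mrc1 differed by day at F of 4.31 (adjusted p = 0.0131), which ended in one fit of all arrays (F of 1.46, adjusted p = 0.243).

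Nos2 did not pass the test on any of the 6 days at the lesion site, where NT3 minus LC ran from -0.16 to 0.17, nor in their mean (0.03, 95% interval -0.05 to 0.10, adjusted p = 0.579). Its difference by day had F of 1.55 (adjusted p = 0.251). The shared probe set read 4.07, 4.09 and 4.02 under NT3 on day 20 against 7.32, 6.23 and 6.31 under LC. The difference was -2.56 (SE 0.34, adjusted p = 5.6e-07), and that of the mean over days -0.71 (SE 0.14, adjusted p = 0.000104). On the other 5 days it ran from -0.62 to -0.09 and did not pass, and the difference by day had F of 7.49 (adjusted p = 0.000784). On day 20 RT1-CE10 was above 9 in 2 of 3 LC arrays and in no NT3 array, and its part in the result was not tested.

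The NT3 difference at the lesion site was set against that in neighbouring cord by a test of its own. NT3 minus LC at the lesion site minus the mean of the same in rostral and caudal cord, over days 3 to 90, was -2.39 for Arg1 (SE 0.14, adjusted p = 2.37e-29), where 31.1% of genes were called. It was 0.02 for Mrc1 (95% interval -0.27 to 0.31, adjusted p = 0.944) and 0.08 for Nos2 (-0.01 to 0.17, adjusted p = 0.194). The shared probe set gave -0.66 (SE 0.14, adjusted p = 4.58e-05). Day 1, with Arg1 differences of -1.96 rostrally and -1.66 caudally, is not in this contrast, because the lesion site was not sampled then. From day 10 on, Arg1 in LC beside the lesion already lay around or below the uninjured level. The contrast therefore also reflects that LC itself was higher at the lesion site. On day 20 the arms differed in RT1-CE10 at the lesion site and were alike in it beside the lesion. The part of RT1-CE10 in the contrast was not tested.

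Beside the lesion the Arg1 difference between NT3 and LC was smaller, and rostrally it was largest on day 1. Rostral NT3 arrays read 9.91, 8.60 and 9.48 on day 1, all under the LC arrays of 10.46, 11.50 and 11.92, a difference of means of -1.96. On the 6 later days the rostral difference ran from -0.34 to 0.11. Over 7 days the mean was -0.41 (SE 0.10, adjusted p = 0.0200; 2.77% of genes called), lower on 6 of 7 days, and it changed with the day (F of 7.04, adjusted p = 0.000823; 28.2% called). Caudal NT3 arrays read 9.02, 8.29 and 9.61 on day 1 and 8.17, 8.40 and 8.78 on day 3, under every LC array of the same day. On day 20 they read 7.04, 7.35 and 7.05 and again lay under every LC array. The caudal mean was -0.66 (SE 0.10, adjusted p = 1.57e-05; 9.76% called), lower on 7 of 7 days, and it too changed with the day (F of 5.64, adjusted p = 0.0107; 7.18% called). RT1-CE10 was above 9 in all 3 LC and none of the 3 NT3 arrays on day 1 on both sides. Over the days on which the arms were alike in RT1-CE10, the Arg1 difference was -0.23 rostrally (adjusted p = 0.529), -0.51 caudally (adjusted p = 0.0305) and -3.296 at the lesion site (adjusted p = 5.48e-15). The rostral call thus rests on days on which the arms also differed in RT1-CE10, and its part in the result was not tested.

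Mrc1 did not pass the test between NT3 and LC in the mean rostrally (-0.03, 95% interval -0.27 to 0.21, adjusted p = 0.925) or caudally (-0.27, 95% interval -0.51 to -0.04, adjusted p = 0.122). The caudal difference changed with the day (F of 4.50, adjusted p = 0.0279). It was 0.70 on day 1, when NT3 arrays read 9.03, 9.0 and 9.15, all above LC, and -1.11 on day 20, when they read 8.94, 8.54 and 9.48, all under LC. That call ended without NT3 day 20 replicate 2 (adjusted p = 0.0544), without LC day 1 replicate 2 (adjusted p = 0.0540) and in a fit of the compared groups alone (adjusted p = 0.0664). On the days alike in RT1-CE10 the caudal mean passed at -0.55 (adjusted p = 0.0472). The rostral difference by day (F of 1.52, adjusted p = 0.283) passed without LC day 10 replicate 1, the array low in Mrc1 (F of 3.95, adjusted p = 0.0152). Nos2 beside the lesion gave means of -0.04 and -0.06 and passed in neither segment, and its caudal difference by day (F of 3.51, adjusted p = 0.0634) passed when any of 4 arrays was left out. The shared probe set read 4.81, 4.31 and 4.34 in rostral NT3 arrays on day 1, all under the LC arrays of 4.94, 5.83 and 6.53, a difference of means of -1.28. On the 6 later days its rostral difference ran from -0.31 to 0.10 and the caudal one, over all 7 days, from -0.17 to 0.10. Its means were -0.26 rostrally (adjusted p = 0.208) and -0.03 caudally (adjusted p = 0.651), and the differences by day did not pass either (F of 2.29, adjusted p = 0.114, and F of 0.97, adjusted p = 0.575).

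The empty tube allows the tube to be set apart from what it carried, at the lesion site on day 3 alone. There ET arrays read 12.08, 11.94 and 11.82 for Arg1, all above LC, 12.05, 12.04 and 12.08 for Mrc1, and 8.84, 9.08 and 8.81 for Nos2. ET minus LC was 0.65 for Arg1 (SE 0.30, adjusted p = 0.119), 0.51 for Mrc1 (SE 0.17, adjusted p = 0.0305) and 0.42 for Nos2 (SE 0.09, adjusted p = 0.00110), where 23.2% of genes were called. In the same comparison 10 of 15 tested genes of the macrophage and microglia list were higher and none lower, with a median of 0.55 against -0.07 over all genes. Relative to uninjured cord that list lay between 2.82 and 2.93 in ET arrays and between 2.17 and 2.38 in LC arrays, and RT1-CE10 was above 9 in 2 of 3 LC arrays and no ET array. The part of these in the differences of the members was not tested. The Mrc1 call ended in one fit of all arrays (adjusted p = 0.192) and without any 1 of 5 arrays, the 3 ET arrays and LC replicates 2 and 3 (adjusted p from 0.0572 to 0.113). Fitted on the compared groups alone, Arg1 passed (adjusted p = 0.0257) and Nos2 did not (adjusted p = 0.0562). NT3 minus ET was -0.31 for Arg1 (adjusted p = 0.547), -0.29 for Mrc1 (adjusted p = 0.305) and -0.32 for Nos2 (SE 0.09, adjusted p = 0.0297), where 7.23% of genes were called. The Nos2 call ended in a fit of the compared groups alone (adjusted p = 0.183) and without NT3 replicate 1 or 2 or ET replicate 2 (adjusted p of 0.0520, 0.122 and 0.163). The shared probe set lay the other way in both, at -0.33 for ET minus LC (adjusted p = 0.517) and 0.24 for NT3 minus ET (adjusted p = 0.684).

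Rostrally and caudally, where ET was followed through all days, Arg1 under NT3 was also lower than under ET in the mean over days. By day, NT3 minus ET ran from -1.58 to 0.42 rostrally, lower on 6 of 7 days and higher on 1. Caudally it ran from -1.66 to 0.14, lower on 5 of 7 days and higher on 2. On both sides the differences were largest on days 1 and 3. The mean difference was -0.46 rostrally (SE 0.10, adjusted p = 0.000579; 30.2% of genes called) and -0.51 caudally (SE 0.10, adjusted p = 0.000853; 8.38% called). On day 1 ET arrays read 10.99, 10.78 and 10.95 rostrally and 9.99, 10.68 and 10.75 caudally, above every NT3 array, and RT1-CE10 was above 9 in all of these ET arrays. On day 3, when RT1-CE10 was under 9 in all ET and NT3 arrays, they read 9.75, 11.07 and 10.02 rostrally and 9.89, 10.39 and 10.04 caudally, again above every NT3 array and above every LC array. ET minus LC over all days was 0.05 rostrally (95% interval -0.16 to 0.25, adjusted p = 0.754; 22.8% of genes called) and -0.15 caudally (-0.35 to 0.04, adjusted p = 0.324; 3.50% called). For Mrc1 the means of NT3 minus ET were -0.27 rostrally (adjusted p = 0.0861, and 0.0114 in a fit of the compared groups alone) and -0.19 caudally (adjusted p = 0.295), and those of ET minus LC 0.24 and -0.08 (adjusted p = 0.141 and 0.677). None of these comparisons called Nos2 or the shared probe set, whose means were -0.23 and -0.03 for NT3 minus ET (adjusted p = 0.149 and 0.726) and -0.03 and -0.01 for ET minus LC (adjusted p = 0.857 and 0.916). The NT3, ET and LC comparisons share arrays and are not independent of each other.

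Enzymes and transporters around Arg1 and Nos2 differed from uninjured cord in both directions, at the lesion site on day 3 in a share near that of all genes. Of 25 genes on a list of arginine use, 21 were tested. At the lesion site on day 3, 12 were higher and 5 lower than in uninjured cord, so that 17 of 21 were called where 74.4% of all genes were (40.8% higher and 33.5% lower), and the median over the list was 0.39 against 0.08 over all genes. Arg1 led the list, followed by Slc7a7, an exporter of basic amino acids, at 3.24 (SE 0.14, adjusted p = 1.87e-19), and the lowest were Gatm, which uses arginine to make the precursor of creatine, at -1.36 (adjusted p = 7.91e-07) and Slc7a1, an arginine importer, at -0.87 (adjusted p = 3.08e-06). Arg2, the mitochondrial arginase, went the other way from Arg1, at -0.50 on day 3 (adjusted p = 0.00331) and -0.68 over days 10 to 30 (adjusted p = 6.91e-06). Odc1, which turns ornithine into putrescine, was higher by 0.85 (adjusted p = 3.07e-10) and 0.64 (adjusted p = 1.06e-09). Slc7a2, an arginine transporter of macrophages, did not pass the filter and read 5.20, 5.11 and 4.96 in uninjured cord and 6.14, 5.91 and 5.58 in LC on day 20.

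Between NT3 and LC at the lesion site, 5 of the 21 arginine genes were higher and 8 lower in the mean over days, where 19.0% and 22.9% of all genes were. The median was -0.06 against -0.01 over all genes. After Arg1 the lowest was Ass1, which rebuilds arginine from citrulline, at -1.24 (SE 0.10, adjusted p = 7.28e-12). The highest were Gatm at 0.49 (adjusted p = 2.56e-05) and Sms, spermine synthase, at 0.30 (adjusted p = 8.29e-08). Arg2 was at 0.19 (adjusted p = 0.0118) and Odc1 was at -0.10 (adjusted p = 0.0230). The difference of NT3 between lesion site and neighbouring cord, which passed for Arg1, did not pass for Arg2 (0.15, adjusted p = 0.0750) or Odc1 (-0.04, adjusted p = 0.496).

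Genes of both kinds of activation rose with injury. The list of classical activation had 18 tested genes, Nos2 among them. At the lesion site 13 were higher on day 3, where 40.8% of all genes were, and 18 over days 10 to 30, with medians of 1.73 and 2.73. The 18 include the Nos2 call of 0.19 (adjusted p = 0.0227 by limma), which ended under the alternatives given with its values. Il6 and Ptgs2, which makes prostaglandins, led on day 3 at 5.32 (adjusted p = 5.93e-13) and 4.77 (adjusted p = 3.83e-18), and Cybb, the phagocyte oxidase, and Il1b over days 10 to 30 at 4.81 (adjusted p = 5.41e-26) and 4.42 (adjusted p = 2.57e-17). Of 21 tested genes of alternative activation, Arg1 and Mrc1 among them, 16 were higher on day 3 and 18 over days 10 to 30, with medians of 2.37 and 2.48, and 1, Vegfa, was lower over days 10 to 30 at -0.29 (adjusted p = 0.0132). Il1r2, a decoy receptor for interleukin-1, and Mrc1 led that list in both periods, Il1r2 at 5.45 and 4.31 (adjusted p = 1.57e-14 and 2.02e-14). Over all genes 41.9% were higher and 37.1% lower over days 10 to 30, with a median of 0.07. Some lists of cell types moved with them at the lesion site on day 3, and others went both ways. Of the macrophage and microglia list 14 of 15 genes were higher (median 2.05) and of the neutrophil list 5 of 6 (2.27). Of the fibroblast and meninges list 9 of 10 were higher and 1 lower (3.73), while 8 of 8 cord markers were lower (-2.70). Of 6 genes of homeostatic microglia 2 were higher and 2 lower (0.08). Of 9 endothelial genes 5 were higher and 2 lower (0.81), and of 15 skeletal muscle genes 5 and 2 (1.44). The part of these cell types in the rise of the activation lists was not tested. In rostral cord on day 1, 15 of 18 classical and 14 of 21 alternative genes were higher and none was lower, where 31.5% of all genes were higher and 31.1% lower, and Il6 was highest at 6.59 (adjusted p = 1.34e-20) and Il1r2 at 6.09 (adjusted p = 1.54e-15).

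Under NT3 genes of both lists were lower at the lesion site in the mean over days. Of the classical list 14 of 18 were lower and 1 higher, where 22.9% of all genes were lower and 19.0% higher, with a median of -0.37 against -0.01 over all genes. Il6 (-1.39, adjusted p = 9.91e-08) and Il1b (-1.19, adjusted p = 1.94e-09) were lowest, and Ccl5, a chemokine of T cells, was higher at 0.60 (adjusted p = 0.00012). Of the alternative list 15 of 21 were lower and 4 higher, with a median of -0.42. After Arg1 the lowest was Il1rn, the interleukin-1 receptor antagonist, at -2.01 (SE 0.14, adjusted p = 1.00e-12), and the highest were Alox15, a lipoxygenase, at 0.51 (adjusted p = 0.0153) and Pparg, a nuclear receptor, at 0.31 (adjusted p = 0.00548). No other gene of either list had a mean difference as large as that of Arg1. The days were unlike. On day 3, when 17.8% of all genes were called, 7 classical genes were higher and 1 lower (median 0.26), and 3 alternative genes were higher and 2 lower (median 0.12). On day 20, when 33.5% were called, 16 classical genes were lower and none higher (median -1.34), and 13 alternative genes were lower and 2 higher (median -1.01). That is also the day with the lowest median of each list.

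In the mean over days and on day 20, the differences of macrophage markers between NT3 and LC were smaller than that of Arg1. These were not tested against each other. Cd68, a lysosomal protein of phagocytes, rose at the lesion site by 5.19 on day 3 (adjusted p = 2.18e-24), and NT3 minus LC was -0.10 over days (95% interval -0.22 to 0.02, adjusted p = 0.179) and -0.79 on day 20 (adjusted p = 8.77e-05). On day 20 its arrays read 12.33, 12.48 and 12.54 under LC and 11.90, 11.42 and 11.66 under NT3. Aif1, a protein of microglia and macrophages, gave 0.05 over days (adjusted p = 0.686) and -0.57 on day 20 (adjusted p = 0.0477). Cd163, the haemoglobin scavenger receptor, gave -0.62 (adjusted p = 0.00691) and -1.61 (adjusted p = 0.00567). Of 15 tested genes of the macrophage and microglia list 9 were lower and none higher in the mean over days, where 22.9% of all genes were lower and 19.0% higher, with Cd14 (-1.20, adjusted p = 5.89e-15) and Itgam (-0.97, adjusted p = 2.69e-13) lowest and a median of -0.25. Of 10 border macrophage genes, Mrc1 included, 7 were lower and none higher against the same shares, with Ms4a7 lowest at -0.68 (adjusted p = 1.12e-06) and a median of -0.36. On day 20, when 33.5% of all genes were called, 12 of the 15 macrophage and microglia genes were lower and none higher. Their median was -0.78 against -0.04 over all genes, with Cd14 (-2.32, adjusted p = 5.88e-12) and Itgam (-1.97, adjusted p = 4.54e-11) lowest. Of the 10 border macrophage genes 4 were lower that day, with Ms4a7 lowest (-2.61, adjusted p = 4.44e-10), and 1 higher, Pf4 (0.58, adjusted p = 0.0397). Relative to uninjured cord, the macrophage and microglia list lay between 2.85 and 2.94 in the LC arrays of day 20 and between 1.93 and 2.15 in the NT3 arrays, with means of 2.91 and 2.03. On day 3, when the Arg1 difference of 0.34 did not pass the test, the list lay between 2.17 and 2.38 in LC and between 2.79 and 2.86 in NT3, and Cd68 and Aif1 were higher under NT3 by 0.92 (adjusted p = 3.67e-05) and 1.196 (adjusted p = 0.000268). With the empty tube they were higher than LC on that day by 0.92 (adjusted p = 3.7e-05) and 1.07 (adjusted p = 0.000856). NT3 minus ET was 0.00 for Cd68 (95% interval -0.30 to 0.29, adjusted p = 0.989) and 0.13 for Aif1 (-0.32 to 0.58, adjusted p = 0.751).

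Marker genes of other cell types were compared in the same mean over days, which called 41.9% of all genes, 19.0% higher and 22.9% lower. All 15 tested genes of the skeletal muscle list were higher under NT3, with a median of 1.73 and Myl1 (3.79, adjusted p = 5.65e-07) and Acta1 (3.68, adjusted p = 2.62e-07) highest. Relative to uninjured cord that list lay between 1.62 and 1.93 in NT3 arrays and between -0.88 and 1.03 in LC arrays on day 10, and between 2.16 and 3.69 and between -0.67 and 0.49 on day 20. With the mean of that list as a covariate, NT3 minus LC for Arg1 was -2.74 (SE 0.20, adjusted p = 3.20e-11). Of 6 neutrophil genes 4 were higher, led by S100a8 (0.94, adjusted p = 0.0186) and Camp (0.91, adjusted p = 0.0193), and 2 lower, Csf3r (-0.42, adjusted p = 0.000266) and Cxcr2 (-0.39, adjusted p = 6.40e-05). Of 9 endothelial genes 7 were higher, with Tek (0.48, adjusted p = 4.68e-07) and Egfl7 (0.44, adjusted p = 1.63e-09) highest, and 1 lower, Eng (-0.24, adjusted p = 0.00072). Of 10 fibroblast and meninges genes 1 was higher, Thy1 (0.71, adjusted p = 6.72e-06), and 4 lower, a share called near that of all genes, with Postn (-0.66, adjusted p = 7.48e-08) and Fn1 (-0.60, adjusted p = 3.74e-11) lowest. Of 6 genes of homeostatic microglia 2 were higher, P2ry12 (0.32, adjusted p = 0.00676) and Olfml3 (0.19, adjusted p = 0.00176), again near the share of all genes, and of 8 cord markers 5, led by Snap25 (1.13, adjusted p = 0.00163) and Slc17a6 (0.97, adjusted p = 2.38e-05), with none lower in either. Because all 15 tested muscle genes were higher under NT3, the muscle covariate follows the arm, and that fit cannot separate muscle content from treatment. The part of these cell types in the Arg1 difference was not tested.

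**Figure D5:**
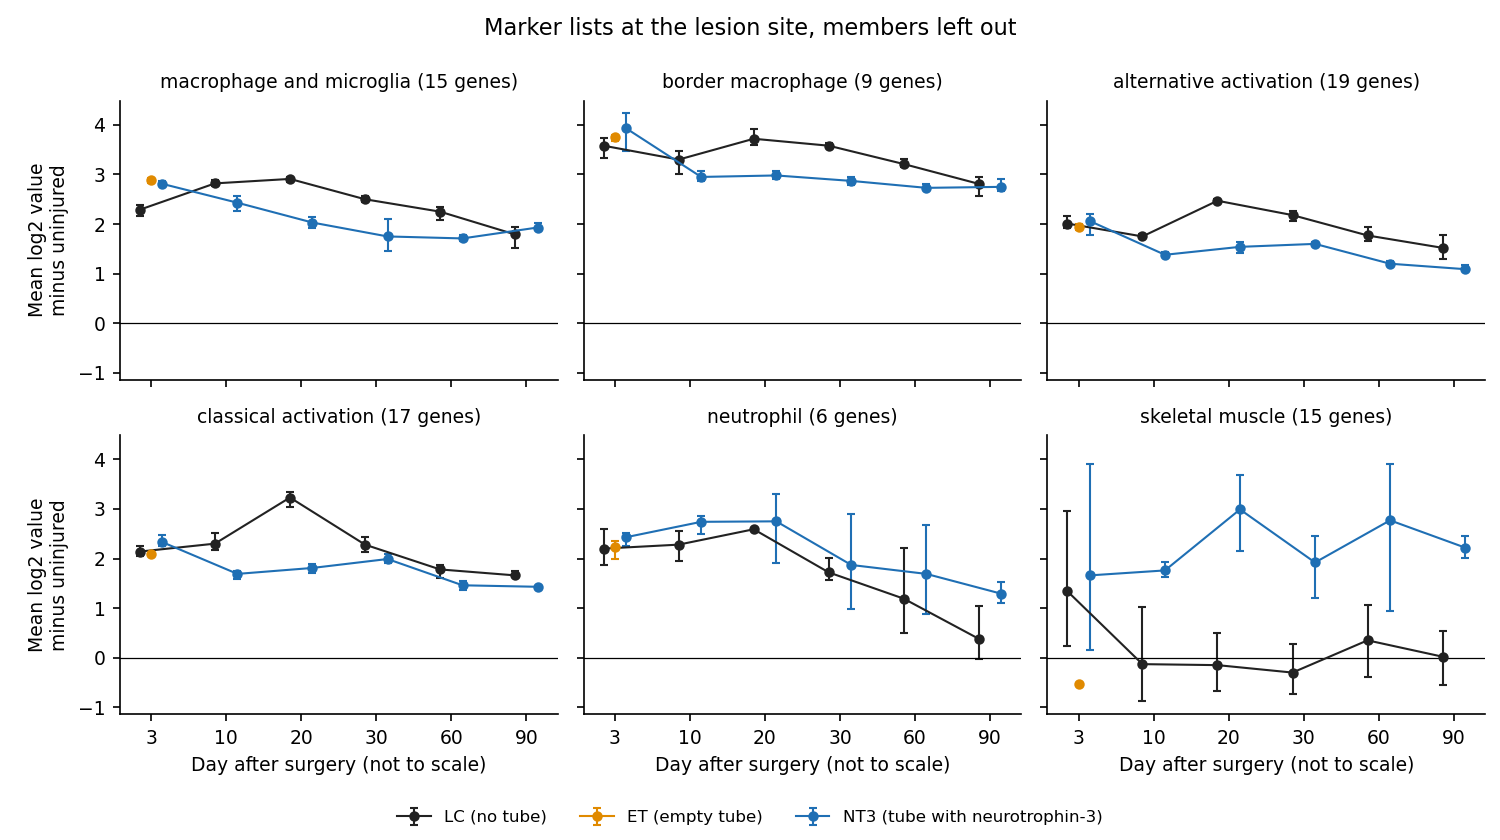
Mean log2 value of 6 marker lists at the lesion site minus the mean of the uninjured cords (vertical axis) by day after surgery (horizontal axis), with Arg1, Nos2 and Mrc1 left out of the lists. Points are group means and bars run from the lowest to the highest array. The macrophage and microglia list has means from 1.71 to 2.91 and the skeletal muscle list means from 1.66 to 2.99 under NT3 and from -0.30 to 1.34 under LC.

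As levels, the members ordered the groups differently. The highest Arg1 mean was LC at the lesion site on day 20 (12.001 ± 0.70), followed by ET (11.95 ± 0.13), NT3 (11.64 ± 0.23) and LC (11.30 ± 0.28) there on day 3 and by rostral LC on day 1 (11.29 ± 0.76). Of 55 pairs of neighbours in that order, 6 differed by more than the larger of their SDs. The highest 9 means of Mrc1 all lay at the lesion site, led by ET on day 3 (12.06 ± 0.02), and 4 of 55 neighbours differed in that way. For Nos2 none of 55 did, and its highest mean was ET at the lesion site on day 3 (8.91 ± 0.14). Over the 56 group means, Arg1 and Mrc1 correlated at Pearson r of 0.35 (Spearman rho 0.21), Arg1 and Nos2 at -0.02 (rho -0.17) and Mrc1 and Nos2 at 0.30 (rho 0.17).

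The genes whose group means followed a member most closely differed from member to member. For Arg1 these were Sod2 (Pearson r 0.926), the mitochondrial superoxide dismutase, Cxcl2 (0.916), a chemokine that attracts neutrophils, Prdx5 (0.907), Acsl4 (0.903) and Etf1 (0.901). By Spearman rho only Sod2 stayed among the 5 closest. For Mrc1 they were Cr1l (0.958), Stab1 (0.951), a scavenger receptor of border macrophages, Cd300c2 (0.950), Fabp4 (0.947), a fatty acid carrier, and Abracl (0.945), and 3 of these 5 stayed by Spearman rho. For Nos2 they were Larp1b (0.865), LOC102552530 (0.819), Prok1 (0.817), Nccrp1 (0.815) and Insrr (0.811), of which 3 stayed by Spearman rho. For the shared probe set they were Il1b (0.885), Saa3 (0.877), Mxd1 (0.876), Birc3 (0.872) and Il1rn (0.866), and only Il1b stayed by Spearman rho. These correlations describe 56 groups that share arrays of 1 series and its controls, and the closest of 12040 genes were picked by them.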

How the data were processed

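All 167 arrays were used, grouped by segment, treatment and day as the labels give them. Per the submitters' processing notes, GCOS, RMA and Affymetrix Expression Console were used, and the log2 values of 31099 probe sets in the authors' deposited table were used as they stand; which arrays were normalised together is not given in the sources used here. The annotation of the array gave 20826 probe sets 1 gene symbol, 436 several and 9780 none, and 57 were controls. The probe set with the highest mean stood for a gene, and genes above the 40th percentile of an array in at least 3 arrays were tested.

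With limma (version 3.58.1, R 4.3.3), each segment and the uninjured cords had a fit of their own, and comparisons between segments used a fit of all arrays. Tests were two-sided, with 95% intervals. Tables and figures were made in Python 3.11.15. Members and lists were chosen with earlier results of these data known. Named were the members, Arg2, Odc1, Slc7a2, Cd163, Cd68 and Aif1, up to 2 highest and 2 lowest called genes of a list in a comparison, and the 5 genes most alike to a member. Of 3 members, 1 had an entry in the promoter table given, and no sequence is printed.

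Alternatives tried were quantile normalization, 75th percentile scaling, dropping the filter or raising it to the 60th percentile, averaging a gene's probe sets, fitting all arrays together or the compared groups alone, array weights, a replicate block, removal of 3 arrays that stood apart (uninjured replicate 2, lesion-site LC day 20 replicate 5 and NT3 day 3 replicate 1), a beta-actin covariate and each array left out. Chosen after seeing the data were the shared Nos2 probe set, days alike in RT1-CE10 and the skeletal muscle covariate. The fits were tested on simulated data in which 200 of 12040 genes were changed: for 3 against 3 arrays at the lesion site (NT3 against LC, day 20) it recovered 10 of 67, 48 of 67 and 63 of 66 genes changed by 0.3, 0.6 and 1.2, with 6 false calls.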

Additional observations from a re-analysis of the deposited data

Results flagged for a closer look

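The difference between NT3 and LC depended on place or time by its own test in 6 cases, which are given here as values. For Arg1 the difference at the lesion site lay 2.39 under that in neighbouring cord (log2 difference -2.39, adjusted p = 2.37e-29 by limma), where 31.1% of all genes were called. The Arg1 difference changed with the day at the lesion site (F of 45.57), rostrally (F of 7.04) and caudally (F of 5.64). These tests by day called 50.6%, 28.2% and 7.18% of all genes. For Mrc1 the difference changed with the day at the lesion site (F of 4.31) and caudally (F of 4.50). The lesion-site call ended in one fit of all arrays (F of 1.46, adjusted p = 0.243 by limma). The caudal call ended when 1 of 2 arrays was left out and in a fit of the compared groups alone (adjusted p = 0.0664 by limma). Groups of 3 arrays are too small for a rule that flags single outlying samples, and none was applied here. The 3 arrays that stood apart were removed only as an alternative, and leaving out single arrays is described below.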

How the results depend on the processing

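Each value was recomputed under every alternative that could bear on it. For Arg1 1053 of 1064 recomputed values kept their side of the threshold and, where called, their direction, for Mrc1 1041 of 1064 and for Nos2 1052 of 1101. Tests by day have no direction and were counted by the threshold alone. No called value of Arg1 or Mrc1 turned its sign. The counts of kept values include 68 values of 20 results that were not called and did turn their sign. With the shared probe set Nos2 turned for injury at the lesion site on day 3 (1.51), NT3 minus LC there in the mean (-0.71) and on day 20 (-2.56), NT3 minus ET (0.24) and ET minus LC on day 3 (-0.33) and the NT3 difference between lesion site and neighbours (-0.66). It passed for injury on day 1 rostrally (1.71) and caudally (0.37), by day in rostral LC (F of 8.46), for NT3 minus LC by day at the lesion site (F of 7.49) and for the lesion site against neighbours on day 3 (1.38). The cause of these and the following changes was not tested.

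Fitted on the compared groups alone, calls were lost for Mrc1 by day in rostral LC (F of 2.49) and caudal NT3 minus LC by day (F of 3.54), for Arg1 at the lesion site on days 60 and 90 (0.67), and for Nos2 there over days 10 to 30 (0.19), by day in LC at the lesion site (F of 2.79) and caudally (F of 2.72), for NT3 minus ET (-0.32) and ET minus LC (0.42) on day 3 and for the lesion site against neighbours (0.10). Calls were gained for Mrc1 in rostral NT3 minus ET (-0.27) and for Arg1 in ET minus LC on day 3 (0.65) and caudally on days 60 and 90 (-0.47; -0.51 with quantile normalization). One fit of all arrays lost Mrc1 in NT3 minus LC at the lesion site (-0.23, and F of 1.46 by day) and in ET minus LC (0.51), and gained Nos2 in caudal NT3 minus LC by day (F of 3.46). The beta-actin covariate lost Arg1 rostrally on days 60 and 90 (-0.60) and Nos2 at the lesion site over days 10 to 30 (0.16), and removal of the 3 arrays lost Arg1 at the lesion site on days 60 and 90 (0.59). The call of Nos2 against neighbours over days 10 to 30 was also lost without a filter, with quantile normalization and with 75th percentile scaling (0.10 each). On days alike in RT1-CE10 Arg1 lost its rostral NT3 call (-0.23) and Mrc1 gained a caudal one (-0.55), and with the skeletal muscle covariate Mrc1 lost its call at the lesion site (-0.24).

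With single arrays left out, calls changed for Arg1 on days 60 and 90 rostrally (-0.76 to -0.60) and at the lesion site (0.44 to 0.84). They changed for Mrc1 in ET minus LC on day 3 (0.45 to 0.55) and rostrally (0.13 to 0.31), and in NT3 minus LC by day caudally (F of 3.66 to 5.63) and rostrally (F of 1.15 to 3.95). They changed for Nos2 in NT3 minus ET at the lesion site (-0.37 to -0.23) and rostrally (-0.094 to -0.069), in caudal NT3 minus LC by day (F of 3.09 to 4.66), over days 10 to 30 (0.15 to 0.22) and against neighbours (0.064 to 0.13). By single days, Mrc1 at the lesion site gained or lost calls as given with its values, and day 20 also passed without the 3 arrays (-0.61) and with the beta-actin covariate (-0.45). For a replicate block, whether the numbers pair arrays of different segments was left undecided. Rostral and caudal arrays of the same number deviated together (correlation over 0.1) in 32 of 62 pairs, with a median correlation of 0.11. LC and NT3 arrays of the same number at the lesion site did so in 7 of 17, with a median of -0.017. Pairs of unlike number were not set beside them, and the comparisons between segments treat all arrays as independent. With the replicate block Arg1 in NT3 minus LC at the lesion site was -2.75, and 1 of 111 results changed its call, Mrc1 on day 20 (-0.56).

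Counts of called genes moved by over 1.5 times in 12 cases. On the compared groups alone they were 540 against 2142 for NT3 minus LC at the lesion site on day 3, 251 against 628 on day 10, 0 against 870 for NT3 minus ET by limma (2474 at an unadjusted p under 0.05), 1832 against 2794 for ET minus LC there, 165 against 422 for caudal ET minus LC and 26 against 50 for rostral minus caudal. NT3 minus ET gave 1575 in one fit of all arrays and 2319 without the 3 arrays, and caudal ET minus LC 254 when probe sets were averaged and 640 under the beta-actin covariate. On days alike in RT1-CE10, NT3 minus LC called 58 against 333 rostrally and 236 against 1175 caudally. Array weights were not used, because their estimation did not converge.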
